A study of Homo sapiens with 15 samples.

Results

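The activator protein 1 (AP-1) family of transcription factors was examined in THP-1 cells, a human monocytic leukaemia line of wild-type genotype. Its members were taken by gene symbol from the deposited table of read counts: JUN, JUNB, JUND, FOS, FOSB, FOSL2, ATF3, BATF, BATF2 and BATF3. These are 10 of the 60286 genes in the table, and all 10 passed the filter on low counts that left 17198 genes to test. RNA was sequenced in 15 libraries, 3 from each of 5 groups. Control cells (group NC) were given PBS. Bacterial extracellular vesicles (BEVs) of *E. coli* were added at 1 μg/mL of protein after isolation by ultracentrifugation (UC, group EUC) or by precipitation with epsilon-poly-L-lysine (PL, group EPL). BEVs of *S. aureus* were added at 10 μg/mL after isolation by UC (group SUC) or PL (group SPL). The dose changed with the species. Cells were incubated for 6 hours, while the time entered in the labels is day 0. The labels do not say that the 3 libraries of a group came from separate cultures, so the p-values measure the spread between these libraries.

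AP-1 is a dimer of basic leucine zipper (bZIP) proteins that binds short DNA sites in promoters and enhancers. Jun proteins can pair with each other or with Fos proteins, whereas Fos proteins need a Jun partner. ATF3 pairs with itself or with Jun proteins and often represses. The BATF proteins have no activation domain of their own, pair with Jun proteins and can bind DNA together with IRF4 or IRF8. In monocytes, bacterial ligands of Toll-like receptors activate MAP kinases, which phosphorylate Jun proteins and induce FOS and other immediate-early genes, and AP-1 acts beside NF-kappa B at genes of cytokines and metalloproteinases.

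The promoters of 5 members are printed, whose RNA moved by different amounts, from the large change of JUN to the small one of JUND. The windows of ATF3, which changed most, and of FOSL2, BATF and BATF2 were also read but are not printed. Of these unprinted windows, only that of ATF3 held a motif that was searched for. Each window is the 250 bases before the start of the canonical transcript of GENCODE release 44, read from hg38 and written 5′ to 3′ on the strand of the gene, and capitals mark a motif that was found. The windows are chr1:58784048-58784297 (minus strand), chr19:18281623-18281872 (minus strand), chr19:12791236-12791485 (plus strand), chr14:75278578-75278827 (plus strand) and chr19:45467746-45467995 (plus strand).
JUN: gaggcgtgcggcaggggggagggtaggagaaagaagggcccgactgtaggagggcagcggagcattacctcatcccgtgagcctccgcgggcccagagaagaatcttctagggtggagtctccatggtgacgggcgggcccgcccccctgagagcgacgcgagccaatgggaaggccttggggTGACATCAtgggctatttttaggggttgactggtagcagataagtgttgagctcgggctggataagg
JUND: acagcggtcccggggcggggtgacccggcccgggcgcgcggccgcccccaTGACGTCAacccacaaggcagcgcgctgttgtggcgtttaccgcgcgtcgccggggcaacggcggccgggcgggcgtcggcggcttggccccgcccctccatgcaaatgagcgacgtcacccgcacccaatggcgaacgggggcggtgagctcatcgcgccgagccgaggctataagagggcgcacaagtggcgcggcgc
JUNB: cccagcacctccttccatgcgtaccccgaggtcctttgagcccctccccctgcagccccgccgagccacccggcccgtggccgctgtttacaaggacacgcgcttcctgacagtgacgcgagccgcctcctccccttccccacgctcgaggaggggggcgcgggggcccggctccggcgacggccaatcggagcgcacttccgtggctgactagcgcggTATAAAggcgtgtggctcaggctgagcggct
FOS: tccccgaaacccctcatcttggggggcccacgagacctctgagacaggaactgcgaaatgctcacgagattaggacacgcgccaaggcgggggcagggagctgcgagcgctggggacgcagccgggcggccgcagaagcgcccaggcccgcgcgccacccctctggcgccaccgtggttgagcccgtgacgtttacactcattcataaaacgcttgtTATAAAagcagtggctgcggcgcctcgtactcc
FOSB: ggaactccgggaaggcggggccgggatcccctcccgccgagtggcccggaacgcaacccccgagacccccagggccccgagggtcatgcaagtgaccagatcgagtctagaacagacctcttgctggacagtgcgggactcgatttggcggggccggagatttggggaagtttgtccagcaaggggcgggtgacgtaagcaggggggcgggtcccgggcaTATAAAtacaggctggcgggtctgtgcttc
The JUN window held TGACATCA, 67 to 60 bases upstream of the start. The JUND window held the palindrome TGACGTCA, 200 to 193 bases upstream. JUNB, FOS and FOSB each held TATAAA, which began between 33 and 30 bases upstream. Such GENCODE windows were read for the 9 members that also have an entry in the RefSeq promoter table, from which no sequence was taken. On both strands, TATAAA was found in 4 of them, the fourth being ATF3, against 9.34% of 20033 windows of protein-coding genes. The pattern TGACNTCA, which contains TGACGTCA and was added after the sequences had been seen, was found in JUN and JUND and in 6.55% of all windows, and TGACGTCA alone in 2.41%. The AP-1 site TGACTCA was in 0 of the 9 windows and in 3.07% of all windows. The NF-kappa B consensus and the CArG box bound by serum response factor were also in none of the 9, against 11.3% and 1.12% of all windows. These matches describe letters in a window, not bound sites. Sequence farther than 250 bases upstream was not searched, so a motif absent here may lie outside the window.

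Between 14399421 and 16637345 reads were counted on genes per library. Levels are given as CPM, the usual scaling of counts to library size, after TMM normalization, as mean ± SD of 3 libraries. All 8 monocyte markers that were checked passed the filter, and their summed level was 1010 to 1030 CPM in PBS libraries and 1480 to 2010 CPM in stimulated ones. Most of the higher sum was SPI1, at a mean of 471 CPM in PBS cells and 960 to 1200 CPM in the stimulated groups, and CSF1R, at 208 and 281 to 334 CPM. The means of LYZ, CD33, ITGAM and MPO were lower in all 4 stimulated groups than in PBS cells, as with CD33 at 82.8 and 50.1 to 64.8 CPM. T cell and erythroid markers summed to at most 0.312 and 0.065 CPM, with CD3D, CD3G, HBB and HBA1 at 0 in every library. Fibroblast markers summed to 0.64 to 1 CPM in PBS libraries and 1.85 to 5.45 CPM in stimulated ones, most of it COL1A1. B cell markers summed to 4.16 to 5.96 CPM in PBS libraries and 1.58 to 4.68 CPM in stimulated ones, and epithelial markers to 2.05 to 4.05 and 1.37 to 2.87 CPM, most of it KRT8. The part of these shifts in the results was not tested. In bulk RNA, fewer cells that use a gene and less of its RNA per cell cannot be told apart. EUC3, EPL1 and SUC3 stood apart from their groups in the balance of short and long genes, and the members that moved with this are described further on.

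JUN, JUNB, ATF3 and BATF2 rose and FOSL2 fell in all 4 stimulated groups. FOS and FOSB rose in EUC, EPL and SPL. JUND, BATF and BATF3 passed the thresholds in none. A gene was called when its adjusted p was at most 0.01 and its log2 fold change at least 1 in size. In EUC cells 7 of the 10 members were called, 6 higher and 1 lower, against 15.2% of all tested genes (9.43% higher and 5.75% lower). In EPL cells it was again 7, 6 of them higher, against 14.5% (9.38% higher and 5.15% lower). In SUC cells 5 members were called, 4 of them higher, against 9.88% (6.82% higher and 3.06% lower), and in SPL cells 7, 6 of them higher, against 11.5% (7.76% higher and 3.70% lower). The median log2 fold change of the 10 members was 1.35, 1.18, 0.95 and 1.26 in EUC, EPL, SUC and SPL, while that of all tested genes lay between -0.01 and 0.01. Tested against the 2-fold threshold itself (glmTreat), 5, 3, 4 and 3 members remained called in EUC, EPL, SUC and SPL, with JUN, ATF3 and BATF2 in all 4. All 4 comparisons used the same 3 PBS libraries, so they are not independent of each other. The members were chosen with earlier results of these data known, so these counts describe them and do not test the family.

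**Figure D1:**
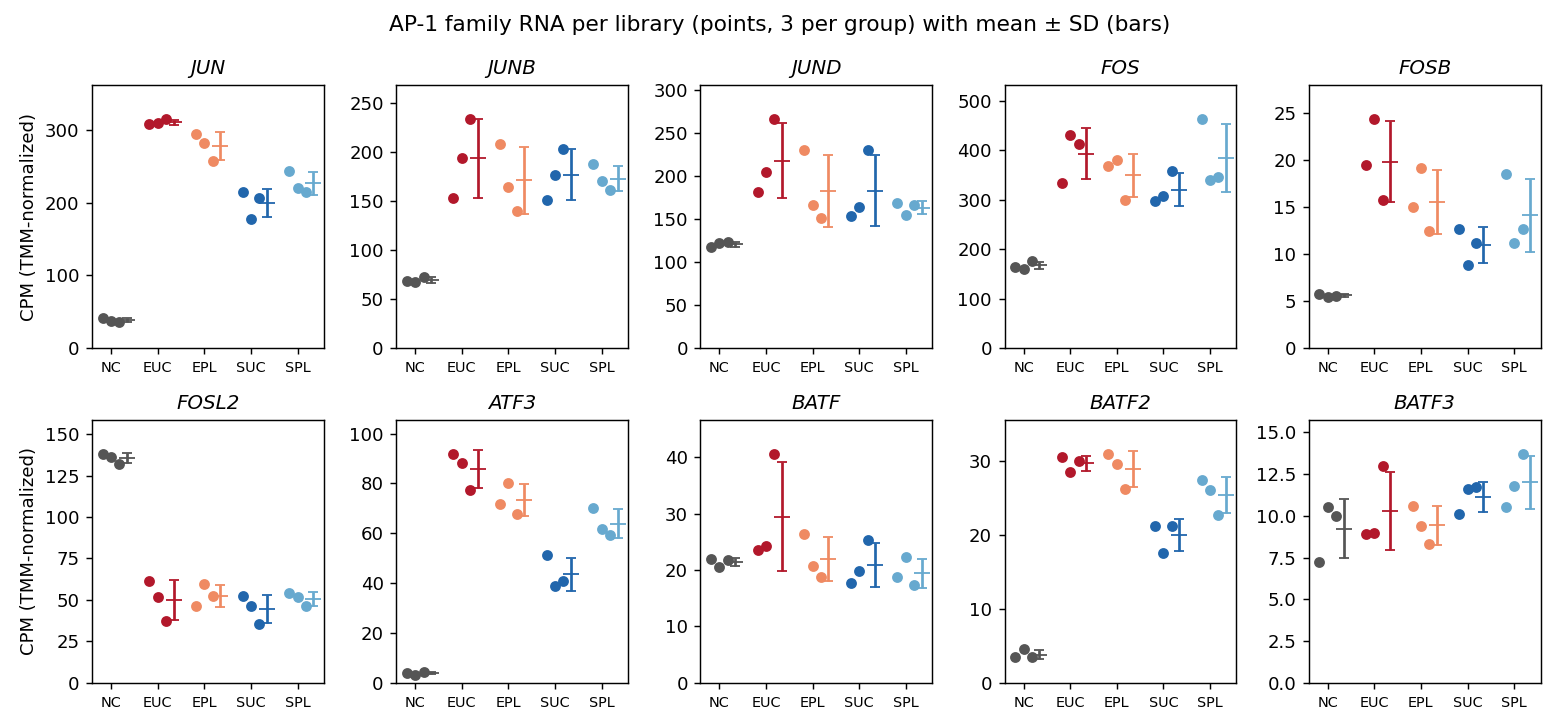
Level of each AP-1 member in CPM (y axis, TMM-normalized, from 0) in the 5 groups (x axis), with 1 point per library and the mean ± SD of 3 libraries beside it. JUN, ATF3 and BATF2 of the PBS group lie far below every stimulated library, FOSL2 of the PBS group lies above every stimulated library, and BATF3 hardly separates the groups.

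JUN, on chr1:58776845-58784048 of hg38 (minus strand, 1 exon), encodes the founding subunit of the family, a strong activator. Its level was 41.1, 37.7 and 35.9 CPM in the PBS libraries, 308, 310 and 315 CPM in EUC, and 295, 283 and 257 CPM in EPL. It was 215, 178 and 207 CPM in SUC and 244, 221 and 215 CPM in SPL. Every stimulated library lay above every PBS library, and every *E. coli* library above every *S. aureus* library. The rise was 8.13-fold in EUC (log2 fold change 3.02, SE 0.0952, adjusted p = 9e-14), 7.28-fold in EPL (2.86, SE 0.0946, adjusted p = 1.76e-13), 5.22-fold in SUC (2.38, SE 0.0932, adjusted p = 2.31e-12) and 5.92-fold in SPL (2.57, SE 0.0937, adjusted p = 8.37e-13). In the order of mean levels, EUC, EPL, SPL, SUC and PBS, only the libraries of SPL and SUC overlapped between neighbours.

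JUNB, on chr19:12791486-12793315 (plus strand, 1 exon), encodes a Jun protein that is a weaker activator than JUN in many settings. It was at 68.7, 67.2 and 72.3 CPM in the PBS libraries and at 153, 194 and 233 CPM in EUC. It was at 208, 164 and 140 CPM in EPL, at 151, 176 and 203 CPM in SUC, and at 187, 170 and 161 CPM in SPL. No stimulated library came near the PBS libraries, and the 4 stimulated groups overlapped one another. The rises were of like size, 2.78-fold in EUC (log2 1.48, SE 0.155, adjusted p = 5.97e-07), 2.46-fold in EPL, 2.54-fold in SUC and 2.49-fold in SPL, the last 3 with adjusted p of at most 3.01e-06. JUNB shares 259 bases of exon with HOOK2 on the opposite strand, and the strand setting of the counting is not given in the sources used here. HOOK2 was at 18.9 ± 3.18 CPM in PBS cells and at means of 16.8 to 17.6 CPM in the stimulated groups, with adjusted p of 0.452 or above.

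JUND, on chr19:18279694-18281622 (minus strand, 1 exon), encodes the Jun protein that is present in most resting cells. It was at 117, 122 and 123 CPM in the PBS libraries, 182, 205 and 266 CPM in EUC, and 230, 166 and 151 CPM in EPL. It was at 154, 164 and 230 CPM in SUC and at 169, 155 and 166 CPM in SPL. All stimulated libraries exceeded all PBS libraries, but the log2 fold change of each group was under the fold threshold. The log2 fold change was 0.85 (SE 0.167, adjusted p = 0.00051) in EUC and 0.60 (adjusted p = 0.0085) in EPL, and 0.60 (adjusted p = 0.0106) in SUC and 0.44 (adjusted p = 0.0519) in SPL. The highest library of its group was EUC3, EPL1 and SUC3, and SPL, with none of these, had an SD of 7.46 CPM where the other stimulated groups had 41.3 to 43.5 CPM.

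FOS, on chr14:75278826-75282230 (plus strand, 4 exons), is the prototype of the immediate-early genes and its protein the most frequent partner of JUN. It was at 165, 161 and 176 CPM in the PBS libraries and at 335, 432 and 413 CPM in EUC. In EPL it was at 368, 380 and 300 CPM, in SUC at 297, 307 and 358 CPM, and in SPL at 463, 341 and 347 CPM. The PBS libraries were the lowest and the stimulated groups overlapped. FOS rose 2.35-fold in EUC (log2 1.23, SE 0.131, adjusted p = 6.93e-07), 2.09-fold in EPL (log2 1.06, SE 0.13, adjusted p = 4.22e-06) and 2.29-fold in SPL (log2 1.20, SE 0.131, adjusted p = 1.33e-06). In SUC its log2 fold change of 0.94 (SE 0.13, adjusted p = 2.35e-05) was just under the fold threshold. The call in EPL was close to that threshold too: the log2 fold change was 0.99 without EPL2.

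FOSB, on chr19:45467995-45475179 (plus strand, 4 exons), encodes another inducible Fos protein and was scarce. It was at 5.76, 5.47 and 5.54 CPM in the PBS libraries, at 19.4, 24.3 and 15.7 CPM in EUC, and at 15.0, 19.1 and 12.4 CPM in EPL. It was at 12.7, 8.87 and 11.2 CPM in SUC and at 18.5, 11.2 and 12.6 CPM in SPL. No stimulated library was as low as any PBS library. The rise was 3.54-fold in EUC (log2 1.82, SE 0.216, adjusted p = 2.52e-06), 2.76-fold in EPL (adjusted p = 3.49e-05) and 2.52-fold in SPL (adjusted p = 0.000121). In SUC the log2 fold change was 0.96 (SE 0.222, adjusted p = 0.00283), and it became 1.11, a call, without SUC2. FOSB lies within the span of ERCC1 on the opposite strand without a shared exon base, and ERCC1 was lower in the stimulated groups, at means of 44.2 to 51.5 CPM against 61.8 ± 4.73 CPM, by less than the fold threshold.

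FOSL2, on chr2:28392448-28417317 (plus strand, 4 exons), encodes Fra-2, a Fos protein without the strong activation domain of FOS. It went the other way. Its level was 138, 136 and 132 CPM in the PBS libraries, 61.3, 51.7 and 37.1 CPM in EUC, and 46.1, 59.5 and 52.2 CPM in EPL. It was 52.1, 46.6 and 35.4 CPM in SUC and 54.0, 51.7 and 46.2 CPM in SPL. The highest stimulated library was below the lowest PBS library, with no group order beyond the spread among the stimulated groups. FOSL2 was 2.7-fold lower in EUC (log2 -1.44, SE 0.158, adjusted p = 1.05e-06), 2.57-fold lower in EPL (log2 -1.36, adjusted p = 2e-06), 3.03-fold lower in SUC (log2 -1.60, adjusted p = 4.92e-07) and 2.67-fold lower in SPL (log2 -1.42, adjusted p = 1.62e-06). It was the only member called lower in any comparison with PBS. The antisense gene FOSL2-AS1 was at a mean of at most 0.0819 CPM in every group.

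Dividing the counts by exon length allowed levels to be compared between genes. In PBS cells JUND was the most abundant Jun member, at 62.5 ± 1.59 CPM per kb of exon, followed by JUNB at 37.9 ± 1.43 and JUN at 10.6 ± 0.729. In EUC cells JUND was at 113 ± 22.6, JUNB at 105 ± 21.7 and JUN at 85.8 ± 0.898 CPM per kb. JUN thus went from 9.52% ± 0.8 (SD, n = 3) of the Jun RNA in PBS cells to 28.6% ± 3.83 in EUC and 29.4% ± 3.06 in EPL cells, and to 22.6% ± 3.62 in SUC and 25.9% ± 0.426 in SPL cells. The share of JUND was 56.3% ± 0.923 in PBS cells and between 35.1% and 38.2% in the means of the stimulated groups, while that of JUNB was 34.2% and between 34.5% and 39.2%. For JUN and for JUND, no stimulated library reached the range of the PBS libraries.

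Of the summed RNA of FOS, FOSB and FOSL2, FOS held 72.5% ± 1.29 in PBS cells and 91.5% to 92.6% in the means of the stimulated groups. FOSL1, which is not among the members examined, was left out of this sum. FOSL2 held 26.1% ± 1.25 in PBS cells, 5.33% ± 1.81 in EUC and 6.18% ± 0.947 in EPL cells, and 5.81% ± 1.51 in SUC and 5.51% ± 0.687 in SPL cells. FOSB stayed a small part, 1.39% in PBS cells and at most 2.67% in a stimulated group. The shares depend on the length used. With counts not divided by length, FOSL2 held 43.9% in PBS cells and 11% to 12.7% in the stimulated groups, and JUN 16.8% and 36% to 44.5%. With the canonical transcript length, FOSL2 held 19.9% and 3.82% to 4.44%.

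**Figure D2:**
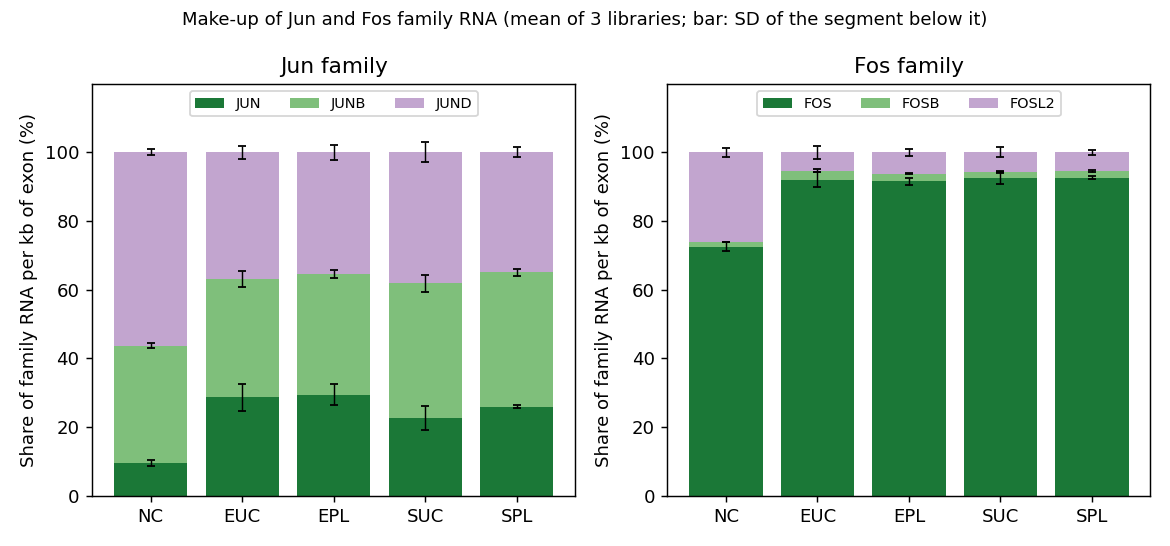
Share of Jun family RNA (left) and Fos family RNA (right) in percent, from CPM per kb of exon, as stacked bars of the means of 3 libraries for each of the 5 groups, with the SD of each segment. Fos family RNA here is that of FOS, FOSB and FOSL2, without FOSL1. The JUN segment grows from 9.52% in PBS cells to between 22.6% and 29.4%, and the FOSL2 segment shrinks from 26.1% to between 5.33% and 6.18%.

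ATF3, on chr1:212565334-212620777 (plus strand, 4 exons in the canonical transcript), is a stress-induced member that restrains the cytokine genes of macrophages. It had the largest rise of the family in each stimulated group. It was at 4.03, 3.35 and 4.23 CPM in the PBS libraries, at 91.8, 88.2 and 77.3 CPM in EUC, and at 71.8, 80.3 and 67.6 CPM in EPL. It was at 51.1, 38.7 and 40.9 CPM in SUC and at 70.3, 61.7 and 59.4 CPM in SPL. The 4 stimulated groups did not all overlap, since every SUC library was below every library of the other 3. The rise was 22.1-fold in EUC (log2 4.47, SE 0.143, adjusted p = 1.04e-13), 18.9-fold in EPL (log2 4.24, adjusted p = 2.22e-13), 11.2-fold in SUC (log2 3.49, adjusted p = 4.06e-12) and 16.5-fold in SPL (log2 4.04, adjusted p = 5.41e-13).

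BATF2, on chr11:64987945-64997018 (minus strand, 3 exons), is known as an interferon-inducible member. It was at 3.46, 4.53 and 3.52 CPM in the PBS libraries, at 30.6, 28.6 and 30.0 CPM in EUC, and at 31.0, 29.7 and 26.3 CPM in EPL. It was at 21.2, 17.6 and 21.3 CPM in SUC and at 27.5, 26.1 and 22.8 CPM in SPL. As with ATF3, SUC was the lowest stimulated group and did not overlap the others. The rise was 7.74-fold in EUC (log2 2.95, SE 0.132, adjusted p = 8.59e-12), 7.53-fold in EPL (adjusted p = 1.09e-11), 5.21-fold in SUC (adjusted p = 2.65e-10) and 6.62-fold in SPL (adjusted p = 3.34e-11).

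BATF and BATF3, which are known for roles in T helper cells and in conventional dendritic cells, did not pass the thresholds in any group. BATF, on chr14:75522455-75546993 (plus strand, 3 exons), was at 21.9, 20.6 and 21.8 CPM in the PBS libraries and at 23.6, 24.2 and 40.6 CPM in EUC, where EUC3 alone was far above the rest. The other 9 stimulated libraries lay between 17.3 and 26.4 CPM. Its log2 fold change was 0.46 (95% interval 0.06 to 0.86, adjusted p = 0.064) in EUC and between -0.14 and 0.04 elsewhere. BATF3, on chr1:212686417-212699840 (minus strand, 3 exons), was between 7.23 and 10.5 CPM in the PBS libraries and between 8.30 and 13.7 CPM in the stimulated ones, with log2 fold changes of 0.02 to 0.38 and adjusted p of 0.104 or above. The upper ends of its 95% intervals were 0.39 to 0.74, under the fold threshold.

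**Figure D3:**
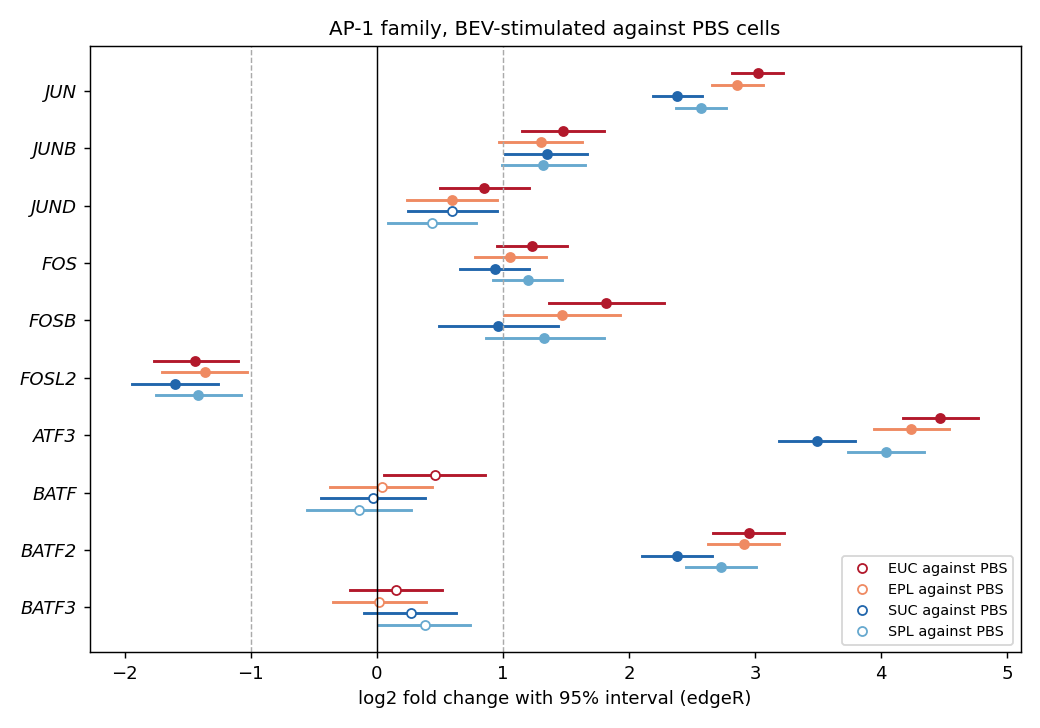
Log2 fold change (x axis) of each AP-1 member (y axis) in the 4 BEV-stimulated groups against PBS, with 95% intervals from edgeR. Filled points have an adjusted p of at most 0.01 and dashed lines mark the fold threshold of 1 on either side. ATF3, JUN and BATF2 lie farthest to the right, FOSL2 lies left of the lower line in all 4 groups, and BATF and BATF3 lie around 0.

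EUC3, EPL1 and SUC3 differed from their groups in a way that touched several members. Over 9819 genes, the genes with at most 3171 bases of exon were higher than those with at least 9388 bases, relative to the group mean, by 0.41 (log2) in EUC3, 0.31 in EPL1 and 0.33 in SUC3. The other 12 libraries ranged from -0.32, in EUC1, to 0.08. The same 3 libraries had the highest JUND, JUNB and BATF and the lowest FOSL2 of their groups. JUND, JUNB and BATF have 1929, 1830 and 928 bases of exon and FOSL2 has 7162. In EUC3, JUND was 0.31, JUNB 0.29 and BATF 0.51 above the group mean of log2 CPM, and FOSL2 was at -0.40 relative to it. With the points of these 3 libraries left out, the correlation of a member's deviation with this balance was 0.794 for JUND and 0.758 for JUNB. It was 0.771 for BATF and -0.747 for FOSL2. For BATF3 it was 0.7 over all 15 libraries and 0.536 with the 3 points left out. Deviation and balance were still measured from group means that included the 3 libraries. These values therefore cannot show whether the members follow the balance among the other 12 libraries alone. What set EUC3, EPL1 and SUC3 apart was not tested.

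Without these 3 libraries, a choice made after seeing the data, the same number of members was called in every comparison (7, 7, 5 and 7). FOSL2 then fell by 1.26 on the log2 scale in EUC, by 1.27 in EPL and by 1.45 in SUC. The log2 fold change of JUND was 0.68 in EUC, 0.40 in EPL and 0.41 in SUC, still under the fold threshold. Each had an adjusted p of at most 1.81e-05. The libraries left out held the highest JUND of their groups, so their removal itself narrowed the spread. These p-values therefore add nothing to those from all libraries. BATF in EUC had a log2 fold change of 0.15 (adjusted p = 0.237) against 0.46 with all libraries. JUN, ATF3 and BATF2 hardly moved, with 2.94 for BATF2 in EUC against 2.95.

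**Figure D4:**
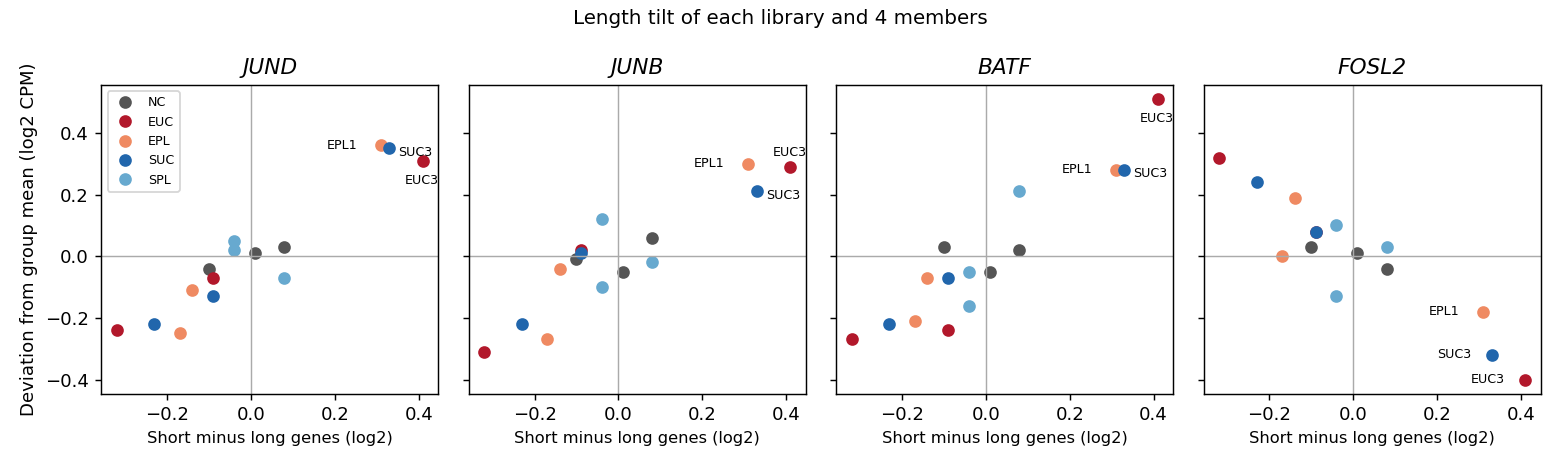
Deviation of 4 members from their group mean in log2 CPM (y axis) against the library's excess of short over long genes in log2 (x axis), with 1 point per library coloured by group. EUC3, EPL1 and SUC3 lie at 0.31 to 0.41 on the x axis, at the top for JUND, JUNB and BATF and at the bottom for FOSL2.

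The study asked whether BEVs isolated by PL act on cells as those isolated by UC do. Between EPL and EUC 0 members were called by edgeR or DESeq2, as were 0% of all tested genes, and the smallest adjusted p of a member was 0.947 (edgeR). At an unadjusted p of at most 0.05 there was 1 member, against 3.51% of all tested genes. It was BATF, with a log2 difference of -0.42 (95% interval -0.83 to -0.02), which was -0.12 without EUC3 and lay between -0.57 and -0.33 without any other library of EPL or EUC. JUN was lower in each EPL library than in each EUC library, but the share of all tested genes that separate in this way was not counted. Its log2 difference was -0.16 (interval -0.34 to 0.02, adjusted p = 0.947). ATF3 differed by -0.23 (-0.47 to 0.01) and FOSB by -0.36 (-0.78 to 0.06). The intervals of all 10 members excluded a 2-fold difference.

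Between SPL and SUC 0 members were called by either tool, against 0.00581% of all tested genes in edgeR. ATF3 was 1.46-fold higher in SPL, with log2 0.55 (95% interval 0.31 to 0.79), SE 0.115 and an adjusted p of 0.523. BATF2 was 1.27-fold higher, with log2 0.35 (interval 0.11 to 0.59). These were the 2 members with an unadjusted p of at most 0.05, against 5.81% of all tested genes. The difference between isolation methods was compared between the species in 1 further test. No member passed it in either tool, and in edgeR 0% of all tested genes did. ATF3 had the smallest adjusted p (0.412), with a difference of -0.78 (SE 0.161), and 5 members had an unadjusted p of at most 0.05, against 3.83% of all tested genes, all of them with the PL minus UC difference more negative for *E. coli*.

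Between the means of the *E. coli* and *S. aureus* groups 0 members passed both thresholds in edgeR or in DESeq2, against 0.686% of all tested genes in edgeR, and 5 members had an unadjusted p of at most 0.05, against 17.0% of all tested genes. Without the fold threshold 3 members passed, all higher with *E. coli* BEVs, where 2.87% of all tested genes were higher. JUN was at 295 against 213 CPM (log2 0.47, SE 0.0616, adjusted p = 0.000106). ATF3 was at 79.5 against 53.7 CPM (log2 0.59, SE 0.0804, adjusted p = 0.00015). BATF2 was at 29.4 against 22.7 CPM (log2 0.38, SE 0.0793, adjusted p = 0.00591). FOSB differed by 0.50 (95% interval 0.19 to 0.80, adjusted p = 0.0473), and JUNB, FOS and FOSL2 by 0.05 to 0.11, with intervals that reached from -0.17 to 0.35. When 1 library was left out at a time, the adjusted p of JUN and ATF3 stayed at or below 0.000959, while that of BATF2 reached 0.0275. It was above 0.01, so that BATF2 no longer met the threshold, without EUC1, EUC2, EPL1, EPL2, SUC1, SUC2, SPL1, SPL2 or SPL3. Dose and species cannot be told apart here.

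Within UC, JUN was higher in EUC than in SUC by 0.64 (adjusted p = 0.000245). ATF3 was higher by 0.98 (adjusted p = 6.86e-05), BATF2 by 0.57 (adjusted p = 0.00519) and FOSB by 0.86 (adjusted p = 0.019). Adjusted p values of at most 0.01 were reached there by 2.49% of all tested genes. The EUC and SUC libraries did not overlap for JUN, ATF3, BATF2 or FOSB. The share of all tested genes whose libraries did not overlap was not counted. Within PL, between EPL and SPL, the differences were 0.30 for JUN (adjusted p = 0.155), 0.20 for ATF3 (adjusted p = 0.725) and 0.19 for BATF2 (adjusted p = 0.758), and 0.384% of all tested genes passed. Only the JUN libraries did not overlap within PL.

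**Figure D5:**
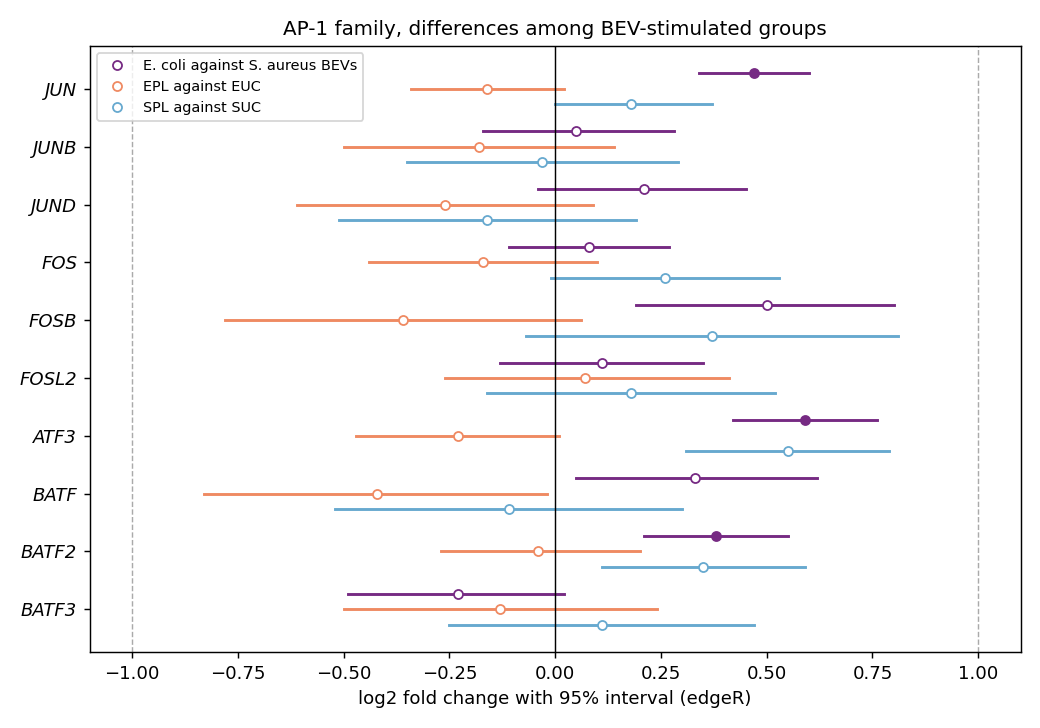
Log2 fold change (x axis) of each AP-1 member (y axis) between the *E. coli* and *S. aureus* groups, between EPL and EUC and between SPL and SUC, with 95% intervals from edgeR. Filled points have an adjusted p of at most 0.01, which holds for JUN, ATF3 and BATF2 between the species, and dashed lines mark the fold threshold of 1, which no point reaches.

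Over the 15 libraries, the members fell into patterns that can be described by the Pearson correlation of their log2 CPM. All points share the split between PBS and stimulated libraries, so high values are common, and no p is given. JUN was closest to ATF3 (r = 0.995) and BATF2 (0.994 with JUN) among the members, and to CXCL2 (0.999) and EHD1 (0.998) among all genes. ATF3 was closest to EHD4 and THBS1 (0.998 each) and BATF2 to RGL1 (0.997) and VSNL1 (0.996). JUNB and FOS were closest to each other (0.959), JUNB also to PIM3 and LIMD2 (0.988 each) and FOS to HBEGF (0.97) and ASB2 (0.968). FOSB was closest to NR4A2 (0.954) and LIF (0.95), and JUND to EIF1 (0.971) and H3-3B (0.967). FOSL2 had no member like it, the highest r being -0.257 with BATF, and was closest to NHSL2 (0.981) and P2RY2 (0.978). BATF was closest to TUBB6 (0.916) and NMB (0.898), and BATF3 to C3orf62 (0.863) and PIK3CD-AS1 (0.861), the lowest of these values.

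Among 11 other AP-1 subunits and dimer partners, 3 were called higher and 0 lower in each stimulated group, where 9.43%, 9.38%, 6.82% and 7.76% of all tested genes were higher and 5.75%, 5.15%, 3.06% and 3.70% lower in EUC, EPL, SUC and SPL. The median log2 fold change of the 11 was 0.11 to 0.48. The counts of the lists that follow stand against the same percentages. Among the called genes were MAFF, a small Maf factor, which rose from 1.51 ± 0.427 CPM in PBS cells to 14.5 ± 2.08 in EUC, and MAF, from 1.02 ± 0.129 to 4.37 ± 0.328 in EUC. FOSL1, the remaining Fos gene, had log2 fold changes of 0.21 to 0.41 and was not called. Of 25 tested genes of other bZIP factors, 7 were higher and 3 lower in EUC, 5 and 3 in EPL, 5 and 3 in SUC, and 5 and 2 in SPL, with medians of 0.07 to 0.20. NFE2L3 went from 7.24 ± 0.442 CPM to group means of 57.7 to 66.1 CPM and ATF5 from 58 ± 3.72 to between 203 and 270 CPM. NFE2, a factor of erythroid and megakaryocytic cells, went from 24.2 ± 1.37 to at most 3.75 CPM, and CEBPE, a factor of granulocytes, from 2.85 ± 0.455 to at most 1.11 CPM, without a call in SPL. IRF8, a partner of BATF factors, fell from 1050 ± 17.7 CPM to between 270 and 396 CPM in all 4 groups. IRF4, the other partner, was called higher in EUC (log2 1.95, adjusted p = 0.00224), while its log2 fold changes in the other groups were 0.97 to 1.43 with adjusted p of 0.0234 to 0.158, and EPL and EUC were not told apart (adjusted p = 0.947).

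Of 22 other immediate-early genes, 11 were higher and 0 lower in EUC, 9 and 1 in EPL, 9 and 0 in SUC, and 10 and 0 in SPL, with medians of 0.73 to 0.99. Of all tested genes, 9.43%, 9.38%, 6.82% and 7.76% were higher and 5.75%, 5.15%, 3.06% and 3.70% lower in EUC, EPL, SUC and SPL. IER3 went from 0.285 ± 0.211 to between 6.75 and 10.4 CPM, SGK1 from 2.88 ± 0.688 to between 51.3 and 74.3 CPM, and EGR2 from 1.53 ± 0.274 to between 27.8 and 38.3 CPM. MYC, the 1 gene called lower, was at 208 ± 6.63 CPM in PBS cells and 102 ± 9 in EPL (log2 -1.03). Its levels were similar in the other groups, at 111 ± 12.1 CPM in EUC, 113 ± 5.3 in SUC and 108 ± 0.206 in SPL. Their log2 fold changes of -0.91, -0.88 and -0.95 were just under the fold threshold in size, with adjusted p of at most 4.48e-07. Of 25 genes that act upstream of AP-1, namely MAP kinases, their substrate kinases and SRF or ETS activators, 1 was higher and 3 lower in EUC and in EPL, and 0 higher and 1 lower in SUC and in SPL. In EUC and EPL these 4 called genes are a share close to the 15.2% and 14.5% of all tested genes, and the medians of the 25 were -0.05 to 0.01. The gene called in all 4 was RPS6KA4, a nuclear kinase that acts below p38 and ERK, at 207 ± 9.56 CPM in PBS cells and between 61.6 and 84.1 CPM in the stimulated groups. MAPKAPK3 was at 99.6 ± 4.32 CPM and between 42.5 and 54 CPM, without a call in SUC or SPL.

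Of 15 textbook AP-1 target genes 10 could be tested, and 9 were higher in EUC and EPL and 8 in SUC and SPL, with 0 lower and medians of 1.54 to 1.88. The share of all tested genes that were higher was 9.43%, 9.38%, 6.82% and 7.76% in EUC, EPL, SUC and SPL. HMOX1, heme oxygenase, went from 40.1 ± 1.36 CPM to 860 ± 133 in EUC and 786 ± 72 in EPL, and to 547 ± 73.1 in SUC and 583 ± 20.2 in SPL. The matrix metalloproteinase MMP9 was at 0.0395 ± 0.0342 CPM in PBS cells, too few reads for a firm ratio, and at 24.8 ± 4.66 to 51.2 ± 5.32 CPM in the stimulated groups. MMP1 was at 0.0392 ± 0.0679 CPM and at 2.33 to 6.44 CPM. MMP3, MMP10, MMP12, CSF2 and IL2 had between 0 and 35 reads in all 15 libraries together and were not tested. Of 9 tested genes of the integrated stress response, another setting in which ATF3 is induced, 1 was higher (PPP1R15A, 38.5 ± 0.222 CPM to between 144 and 178 CPM) and 1 lower (VLDLR, 119 ± 3.37 to between 39.1 and 48.5 CPM) in each of the 4 groups, with medians of 0.25 to 0.42. These lists were chosen by known function, but with earlier results of these data known. Their counts therefore describe the listed genes and do not test the lists. Many of the genes are also targets of NF-kappa B and other factors.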

How the data were processed

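Per the labels, the authors isolated total RNA by Trizol and prepared libraries with the NEB Next Ultra kit, and both fragment ends were sequenced. The submitters' processing notes name FastQC 0.11.5, HISAT2 2.1.0, StringTie 1.3.3b, featureCounts, DESeq 1.28.0 and hg38. Of the counting step, strand setting and annotation were not given in the sources used here. Deposited values are whole-number read counts per gene without normalization. All 15 columns of values were used, and 0 were left out. Groups follow the titles in the labels.

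The deposited counts were analysed under R 4.3.3 with the package edgeR 4.0.16. Low counts were removed by filterByExpr, library sizes were scaled by TMM, and 1 quasi-likelihood model was fitted to all 15 libraries, with glmQLFTest for each comparison and Benjamini-Hochberg adjustment over 17198 genes. A call needed an adjusted p no larger than 0.01 together with an absolute log2 fold change no smaller than 1, the thresholds of the study's methods. The 95% intervals are from the same fit, with 10 residual degrees of freedom before moderation. Depth was between 14399421 and 16637345 counted reads per library, and the common biological coefficient of variation was 0.118. No 2 libraries of a group agreed within sampling noise. Log2 CPM used a prior count of 2. Gene positions and exon lengths come from GENCODE 44, and promoter windows were read from hg38.

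The members and gene lists were chosen with earlier results of these data known. Named genes are the 10 members. From each other list, up to 3 genes called in all 4 comparisons with PBS were named by the largest mean change at a mean CPM of at least 1, with up to 2 genes called lower. For each member, the member and the 2 genes with the highest correlation were named, and genes that overlap a member. FOSL1, IRF4, COL1A1, the markers at 0 and the genes without enough reads were added to the text once their values were known. Not every gene that these rules pick is reported here. The alternatives were DESeq2 1.42.0, other scalings, no filter, no fold threshold, glmTreat, only the groups compared, a replicate block and leaving out each library, and 3 more were added after seeing the data. The scripts were tested on simulated data.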

Additional observations from a re-analysis of the deposited data

Results flagged for a closer look

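The 3 members that differed between *E. coli* and *S. aureus* BEVs were picked out because the effects of the stimulated groups differed by a test of the difference itself. The log2 difference between the mean of EUC and EPL and the mean of SUC and SPL was 0.47 for JUN (SE 0.0616, adjusted p = 0.000106), 0.59 for ATF3 (SE 0.0804, adjusted p = 0.00015) and 0.38 for BATF2 (SE 0.0793, adjusted p = 0.00591), all under the fold threshold of 1. They are also the 3 members with the largest rise over PBS in every stimulated group. Within PL, between EPL and SPL, the adjusted p was 0.155 for JUN, 0.725 for ATF3 and 0.758 for BATF2. The adjusted p of BATF2 between the species also rose above 0.01 in most of the fits that left out 1 stimulated library. The dose of BEVs changed with the species.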

How the results depend on the processing

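The number of called members was 7, 7, 5 and 7 in EUC, EPL, SUC and SPL against PBS, and 0 in the other 4 comparisons. It kept these values with DESeq2, RLE scaling, no filter, only the groups compared, without EUC3, EPL1 and SUC3, and with offsets corrected for gene length, the last 2 added after seeing the data. With glmTreat it was 5 in EUC, 3 in EPL, 4 in SUC, 3 in SPL and 0 elsewhere. Without a fold threshold it was 8, 8, 7 and 7 against PBS, 3 between the species and 0 elsewhere. With upper-quartile scaling or library size only, EPL had 6, since FOS was at 0.98 and 0.93. Leaving out 1 library gave 7 in EUC, 6 to 7 in EPL, 5 to 6 in SUC and 7 in SPL, and 0 elsewhere.

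The replicate numbers did not pair the libraries: the deviations of same-numbered libraries correlated at over 0.1 in 7 of 30 pairs (mean r 0.00949), and 7 of 15 libraries correlated best with their own number. With a replicate block the counts of called members were again 7, 7, 5, 7 and 0.

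The signs that changed under these alternatives were those of values near 0 that were not called. BATF3 in EUC was -0.01 with library size only and -0.05 without the 3 libraries. In EPL, BATF and BATF3 were -0.05 and -0.06 with upper-quartile scaling, -0.09 and -0.10 with library size only, and -0.11 and -0.07 without the 3 libraries. Without these, JUNB between the species was -0.06, FOSL2 between EPL and EUC -0.01, and JUNB, JUND and BATF between SPL and SUC 0.08, 0.04 and 0.04. With length-corrected offsets, BATF2 between EPL and EUC was 0.03, and JUNB and BATF between SPL and SUC 0.07 and 0.01. Leaving out 1 library gave -0.06 to 0.26 for BATF3 in EUC, -0.12 to 0.13 for BATF and BATF3 in EPL and -0.19 to 0.08 for BATF in SUC. It gave -0.04 to 0.12 for JUNB between the species, and, between EPL and EUC, -0.10 to 0.25 for FOSL2, -0.23 to 0.07 for BATF3 and -0.09 to 0.02 for BATF2. Between SPL and SUC it gave -0.13 to 0.08 for JUNB, -0.27 to 0.04 for JUND and -0.22 to 0.05 for BATF, and for the difference of methods between the species -0.29 to 0.06 for FOSL2, -0.32 to 0 for JUNB and -0.30 to 0.07 for JUND. The causes were not tested.

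With library size only, the median of all genes shifted by -0.16, -0.12, -0.11 and -0.12 in EUC, EPL, SUC and SPL, and EUC had 1412 genes higher and 1366 lower against 1621 and 989. With glmTreat, 1393, 1309, 807 and 1003 of all genes were called against 2610, 2498, 1700 and 1972, and without a fold threshold 5251, 5026, 3697 and 4114. Between the species these counts were 5 and 665 against 118. For the difference of methods between the species, 0 genes were called by edgeR, 3 by DESeq2 and 4 without the filter, and between SPL and SUC 1 by edgeR and 2 by DESeq2. In EUC against PBS, the SE of the log2 fold change ran from 0.0952 for JUN to 0.216 for FOSB, 1 of the scarcer members.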
